A study of Mus musculus with 3 samples.

Results

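*Cer1*, *Dkk1*, *Hesx1*, *Hhex*, *Otx2* and *Lhx1* are genes of the anterior visceral endoderm and the anterior definitive endoderm, the endodermal tissues that pattern the head of the mouse embryo. They were chosen by name as classical organizer genes, and all 6 were found among the 17633 genes with at least 1 read in the study. The data were RNA-seq read counts from the endoderm, mesoderm and epiblast of ICR mouse embryos at E7.5, with 1 library per germ layer and no treatment. The study cut off the embryonic region, separated the layers with enzymes and needles and pooled the RNA of many embryos for each library, and its epiblast comprised the neuroectoderm together with the primitive streak. With 1 library per layer there were no replicates, so every difference below is between 2 libraries and every interval covers counting error only.

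The anterior visceral endoderm is a group of extra-embryonic cells that moves to the future anterior side of the embryo before gastrulation and secretes antagonists of Nodal, BMP and Wnt toward the underlying epiblast. The anterior definitive endoderm and the axial mesendoderm, which leave the anterior primitive streak later, express many of the same genes and take over the maintenance of the forebrain. *Cer1* and *Dkk1* encode the secreted antagonists. *Hhex*, *Otx2*, *Lhx1* and *Hesx1* encode homeodomain transcription factors, and mouse embryos that lack any of these 4 genes have defects of the forebrain or the head.

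The reads counted on genes summed to 41.7 M in endoderm against 40.8 M in mesoderm and 42.7 M in epiblast. Levels are given as RPKM, reads scaled to the length of the gene and to the depth of the library, so that levels can be compared between genes. In bulk samples such as these, fewer cells of a type and less RNA per cell cannot be told apart. The endoderm library was highest for all 7 visceral endoderm markers and for 4 of the 6 definitive endoderm markers. The RPKM summed over 7 visceral endoderm markers (*Afp*, *Amn*, *Cubn*, *Ttr*, *Apoa1*, *Apob* and *Rhox5*) was 5602 in endoderm against 7.62 in mesoderm and 5.03 in epiblast. The sum over 6 definitive endoderm markers was 379, 34.9 and 28.6, although *Cxcr4* and *Pyy* of that list were highest in mesoderm and *Pyy* had 0 reads in endoderm and epiblast. Most of that endoderm sum came from *Trh* at 286, followed by *Foxa2* at 44.0 and *Sox17* at 39.5. *Foxa2* is also among the node genes listed below, so the sum is not a measure of definitive endoderm alone. The 6 mesoderm markers summed to 18.6, 450.2 and 90.4, and the 6 epiblast markers to 54.8, 125 and 889, in the same order of libraries. The 6 extra-embryonic ectoderm and trophoblast markers summed to 45.8, 28.5 and 39.7, with *Tpbpa* at 0 reads in all 3 libraries.

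The members fell into different patterns over the layers, and the promoter of an example of each pattern is shown to give the sequence context of the gene. The windows are the 250 bases before an annotated RefSeq start in GRCm38.p6 or, for *Lhx1*, the 249 of them that lie outside annotated exons, all read 5′ to 3′ on the strand of the gene. Capitals mark matches to TAATTA, a core bound by LIM homeodomain proteins, and the other motifs searched on both strands were TAATCC (Otx and Goosecoid type homeodomains), GTAAACA (forkhead proteins) and CTTTGAA (TCF/LEF proteins). *Cer1* stands for a high level in endoderm with a lower one in mesoderm (chr4:82885152-82885401, minus strand), *Hesx1* for endoderm and epiblast (chr14:27000112-27000361, plus strand), *Lhx1* for endoderm and mesoderm (chr11:84525536-84525784, minus strand) and *Otx2* for a maximum in epiblast (chr14:48667645-48667894, minus strand).
Cer1: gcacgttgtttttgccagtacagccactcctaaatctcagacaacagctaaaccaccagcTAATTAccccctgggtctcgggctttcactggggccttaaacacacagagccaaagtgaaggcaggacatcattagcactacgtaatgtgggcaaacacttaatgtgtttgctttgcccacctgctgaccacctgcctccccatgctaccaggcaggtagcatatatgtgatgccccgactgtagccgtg
Hesx1: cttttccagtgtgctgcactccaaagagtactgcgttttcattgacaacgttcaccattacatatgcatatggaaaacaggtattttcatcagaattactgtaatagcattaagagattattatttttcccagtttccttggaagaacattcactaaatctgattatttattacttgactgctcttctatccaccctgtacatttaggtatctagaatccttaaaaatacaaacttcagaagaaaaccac
Lhx1: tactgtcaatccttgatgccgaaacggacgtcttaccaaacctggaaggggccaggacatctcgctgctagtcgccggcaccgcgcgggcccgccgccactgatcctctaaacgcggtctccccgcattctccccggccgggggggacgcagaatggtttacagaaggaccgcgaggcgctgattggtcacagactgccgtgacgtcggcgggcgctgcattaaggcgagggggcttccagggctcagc
Otx2: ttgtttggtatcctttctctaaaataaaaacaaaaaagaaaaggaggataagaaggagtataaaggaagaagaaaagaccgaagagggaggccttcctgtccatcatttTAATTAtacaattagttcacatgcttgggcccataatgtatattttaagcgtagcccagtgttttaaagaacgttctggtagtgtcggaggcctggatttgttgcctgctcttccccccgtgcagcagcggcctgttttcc

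In the *Cer1* window TAATTA lies 190 bases before the start, and in the *Otx2* window shown it lies 141 bases before the start. This motif was present in 4.84% of 32851 RefSeq promoter windows of the same length. Another *Otx2* start had 3 matches to TAATTA and 1 to TAATCC, a motif found in 6.25% of windows. The window of that start overlaps an annotated *Otx2* exon, in which some of these matches lie. The *Dkk1* window had a CTTTGAA 117 bases before the RefSeq start, and 4.46% of windows had this motif. Only 81 bases of this *Dkk1* window lie outside annotated exons, and the match is not among them. The windows of *Hesx1*, *Hhex* and *Lhx1* held none of the 4 motifs, and none of the windows held GTAAACA, which was present in 3.17% of all windows. A match is a description of letters, not evidence of binding.

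The secreted antagonists were the most endoderm-weighted members. *Cer1*, which encodes a cysteine knot protein that binds Nodal and BMP, lies on chromosome 4 (82881751 to 82885148, minus strand, GRCm38). *Cer1* had 10008 reads in endoderm against 3374 in mesoderm and 49 in epiblast. Its level was RPKM 138 in endoderm (95% exact Poisson interval 135 to 141), against 47.4 in mesoderm (45.8 to 49.0) and 0.659 in epiblast (0.487 to 0.871). The endoderm library was therefore high, mesoderm intermediate at 34.4% of the endoderm level, and epiblast at 0.478% of it. *Cer1* was the highest member in endoderm and in mesoderm and the lowest in epiblast. Only 528 genes had a higher RPKM than *Cer1* in endoderm, compared with 1665 in mesoderm and 11713 in epiblast.

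*Dkk1* encodes a secreted Wnt antagonist that binds the co-receptors LRP5 and LRP6, and it lies on chromosome 19 (30545863 to 30549665, minus strand). It had 3372 reads in endoderm against 773 in mesoderm and 363 in epiblast. The RPKM was 36.1 in endoderm (34.9 to 37.3), against 8.43 in mesoderm (7.85 to 9.04) and 3.79 in epiblast (3.41 to 4.20). *Dkk1* thus had the same order of layers as *Cer1*. Its mesoderm level was 23.4% of that in endoderm, a lower share than for *Cer1*, and its epiblast level was 10.5%, a higher share than for *Cer1*. Added together, *Cer1* and *Dkk1* had a summed RPKM of 174 in endoderm against 55.8 in mesoderm and 4.44 in epiblast.

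The 4 homeobox genes did not share a single order. *Hhex*, a homeobox gene of the anterior endoderm and of blood and endothelial progenitors, lies on chromosome 19 (37434810 to 37440731, plus strand). It had 825 reads in endoderm against 415 in mesoderm and 55 in epiblast, and its RPKM was 11.2 (10.4 to 12.0), 5.74 (5.20 to 6.32) and 0.727 (0.548 to 0.947). *Hhex* was the lowest member in endoderm, and its mesoderm level was 51.3% and its epiblast level 6.50% of that.

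*Lhx1* encodes a LIM homeodomain protein needed in the anterior mesendoderm and in the visceral endoderm, and lies on chromosome 11 (84518284 to 84525535, minus strand). It had 1752 reads in endoderm against 1461 in mesoderm and 268 in epiblast. The RPKM was 15.3 in endoderm (14.6 to 16.0), against 13.0 in mesoderm (12.3 to 13.7) and 2.28 in epiblast (2.02 to 2.57). *Lhx1* was the member most evenly divided between endoderm and mesoderm, with a mesoderm level of 85.0% and an epiblast level of 14.9% of that in endoderm.

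*Hesx1* encodes a homeodomain repressor found in the anterior endoderm and then in the anterior neural plate, and lies on chromosome 14 (26994416 to 27002329, plus strand). It had 760 reads in endoderm against 76 in mesoderm and 411 in epiblast. The RPKM was 15.9 in endoderm (14.8 to 17.1), against 1.63 in mesoderm (1.28 to 2.04) and 8.41 in epiblast (7.62 to 9.27). *Hesx1* was the lowest member in mesoderm, at 10.2% of its endoderm level, while epiblast held 52.7% of it.

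*Otx2*, a homeobox gene of the visceral endoderm and of the anterior epiblast and neuroectoderm, lies on the same chromosome as *Hesx1* (48657677 to 48673819, minus strand). It had 1980 reads in endoderm against 1506 in mesoderm and 4322 in epiblast. The RPKM was 27.4 in endoderm (26.2 to 28.6), against 21.2 in mesoderm (20.2 to 22.3) and 58.3 in epiblast (56.5 to 60.0). *Otx2* was the only member with its maximum outside endoderm, and also the one with the smallest distance between its highest and lowest layer, since endoderm held 47.0% and mesoderm 36.4% of the epiblast level.

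**Figure D1:**
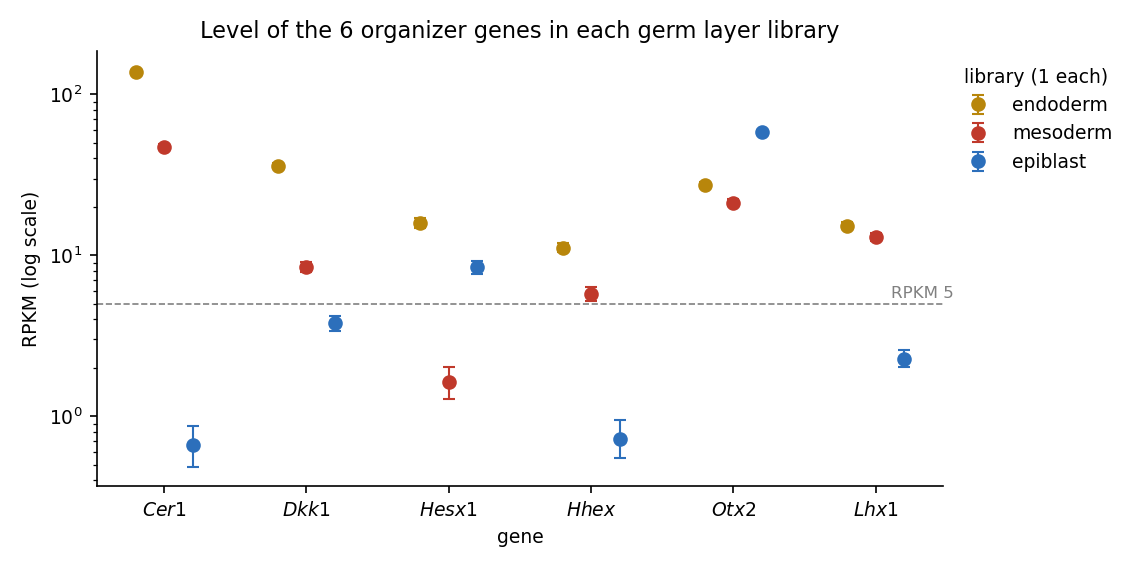
RPKM of each member (log scale) in the endoderm, mesoderm and epiblast libraries, with 1 point per library, 95% exact Poisson intervals of the reads as bars and RPKM 5 as a dashed line. Endoderm is the highest point for 5 of the 6 genes, and *Otx2* is highest in epiblast at 58.3.

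Within endoderm the order of RPKM was *Cer1*, *Dkk1*, *Otx2*, *Hesx1*, *Lhx1* and *Hhex*. Of these neighbours, *Hesx1* and *Lhx1* alone had overlapping intervals, at a ratio of 1.04. Within mesoderm the order was *Cer1*, *Otx2*, *Lhx1*, *Dkk1*, *Hhex* and *Hesx1*, and no neighbouring intervals overlapped. Within epiblast it was *Otx2*, *Hesx1*, *Dkk1*, *Lhx1*, *Hhex* and *Cer1*, and only the intervals of *Hhex* and *Cer1* overlapped, at a ratio of 1.10. RPKM exceeded 5 for 6 members in endoderm, for 5 in mesoderm and for 2 in epiblast only.

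Summed over the 6 members, RPKM was 244 in endoderm against 97.4 in mesoderm and 74.1 in epiblast. *Cer1* made up 56.6% of that sum in endoderm, but 48.7% in mesoderm and 0.889% in epiblast, and *Otx2* made up 11.2%, 21.8% and 78.6%. The 4 homeobox genes together had 69.8 in endoderm against 41.6 in mesoderm and 69.7 in epiblast. Their sums in endoderm and epiblast were close, whereas that of the secreted antagonists was far lower in epiblast.

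Highest RPKM in endoderm was found for 5 of the 6 members, as for 37.1% of the 9135 genes that passed RPKM 5 in a library. The order endoderm, mesoderm, epiblast held for *Cer1*, *Dkk1*, *Hhex* and *Lhx1*, and for 21.9% of all these genes. *Hesx1* and *Otx2* were lowest in mesoderm, as were 21.5% of the genes, and the other 4 members were lowest in epiblast, as were 30.5%.

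**Figure D2:**
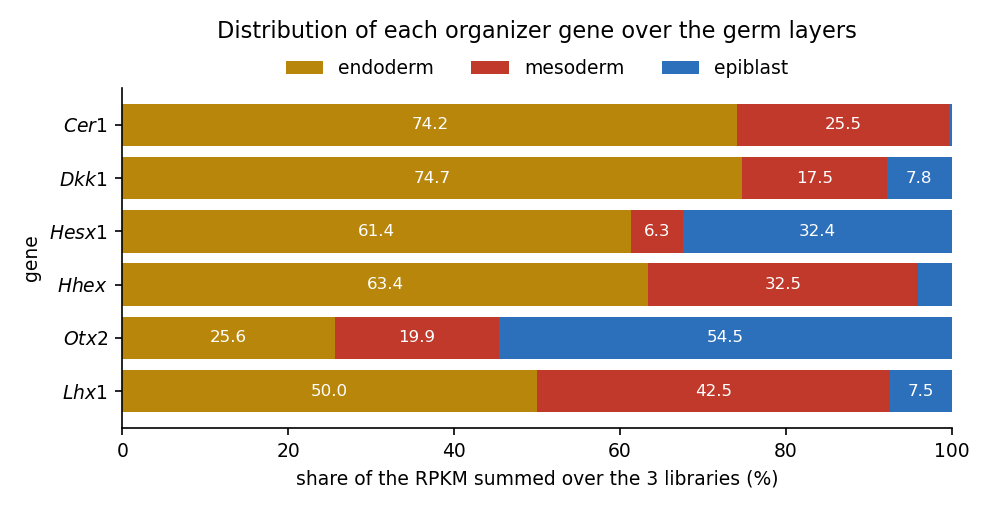
Share of each member's RPKM, summed over the 3 libraries, that fell in each library (percent, 1 bar per gene). *Cer1* and *Dkk1* have 74.2% and 74.7% in endoderm, *Lhx1* has 42.5% in mesoderm, close to its endoderm share, and *Otx2* has 54.5% in epiblast.

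To ask which members separated the layers, each pair of libraries was put to the criteria that the study used for differential expression: Fold Change>2, FDR<0.001 and RPKM>5 in either library. A two-sided exact test of the reads (that of Audic and Claverie) gave the FDR, adjusted over all genes by Benjamini-Hochberg, and it compares a pair of libraries rather than the germ layers as conditions. At this depth nearly every difference of 2-fold passed the FDR criterion, which removed 1 gene in each comparison with mesoderm and 0 in the pair of endoderm and epiblast. A pair of libraries that met all criteria is described as called.

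Between endoderm and mesoderm, *Hesx1*, *Dkk1* and *Cer1* were called, all higher in endoderm. *Hesx1* was 9.81-fold higher (95% exact binomial interval 7.74 to 12.6), *Dkk1* 4.28-fold (3.96 to 4.63) and *Cer1* 2.91-fold (2.80 to 3.03). The other 3 members also had higher values in endoderm and were not called, at 1.95-fold for *Hhex* (1.73 to 2.20), 1.29-fold for *Otx2* (1.21 to 1.38) and 1.18-fold for *Lhx1* (1.10 to 1.26). Among the 8867 genes with RPKM>5 in either library, 23.0% were called, 14.4% with a higher level in endoderm and 8.56% with a higher level in mesoderm. The median log2 ratio was 1.25 over the members and -0.10 over these genes. *Hhex* lies close to the threshold, and it was called when the libraries were scaled by TMM or by the median of ratios, either of which raised the log2 ratio of every gene by 0.11 and gave 1.08 for *Hhex*. When edgeR's exact test was given a biological coefficient of variation of 0.4 by assumption, 0 members were called, whereas 2 (*Dkk1* and *Hesx1*) had an unadjusted p under 0.05 in that test, and 2 members were called at a coefficient of 0.2.

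Between endoderm and epiblast, 5 members were called, 4 of them higher in endoderm. *Cer1* was 209-fold higher in endoderm (158 to 283), *Hhex* 15.4-fold (11.7 to 20.6), *Dkk1* 9.52-fold (8.54 to 10.6) and *Lhx1* 6.70-fold (5.89 to 7.65). *Otx2* was 2.13-fold higher in epiblast (2.02 to 2.25) and was called in that direction. *Hesx1*, at 1.90-fold higher in endoderm (1.68 to 2.14), was not called. Of 8843 genes 24.6% were called, with 15.7% higher in endoderm and 8.94% higher in epiblast, and the median log2 ratio was 3.0 over the members and -0.08 over all. A ratio higher than that of *Cer1* was found for 85 of these genes. *Otx2* and *Hesx1* exchanged their calls when the libraries were scaled by TMM or by the median of ratios, with log2 ratios of -0.98 for *Otx2* and 1.03 for *Hesx1*, so that all 5 called members were then higher in endoderm. With an assumed coefficient of 0.4, *Cer1* and *Hhex* were the 2 members called.

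Between mesoderm and epiblast, all 6 members were called. *Cer1* was 72.0-fold higher in mesoderm (54.3 to 97.5), *Hhex* 7.89-fold (5.94 to 10.7), *Lhx1* 5.70-fold (5.0 to 6.52) and *Dkk1* 2.23-fold (1.96 to 2.53). *Hesx1* was 5.17-fold higher in epiblast (4.04 to 6.70) and *Otx2* 2.75-fold (2.59 to 2.91). Of 8340 genes 10.3% were called, with 5.30% higher in mesoderm and 5.02% higher in epiblast. The median log2 ratio was 1.83 over the members and 0.02 over these genes. With RPKM>10 in place of RPKM>5 the calls of *Dkk1*, *Hesx1* and *Hhex* were lost and 3 members were left, and with an assumed coefficient of 0.4 only *Cer1* was called. *Dkk1* was also not called with a pseudocount of 1 RPKM, at a log2 ratio of 0.98.

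The ratio of *Cer1* between mesoderm and epiblast was exceeded by 3 of the 8340 genes. They were *Tcf21* (721 against 4 reads), *Gata5* (1443 against 8) and *Tnnt2* (366 against 4), which are named here after their values were seen and encode cardiac or mesodermal transcription factors and a sarcomere protein. *Cer1* and *Dkk1* were the 2 members called in all 3 pairs, as were 182 genes in all, or 1.99% of those over RPKM 5 anywhere. The 3 comparisons share libraries and are not independent of each other.

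**Figure D3:**
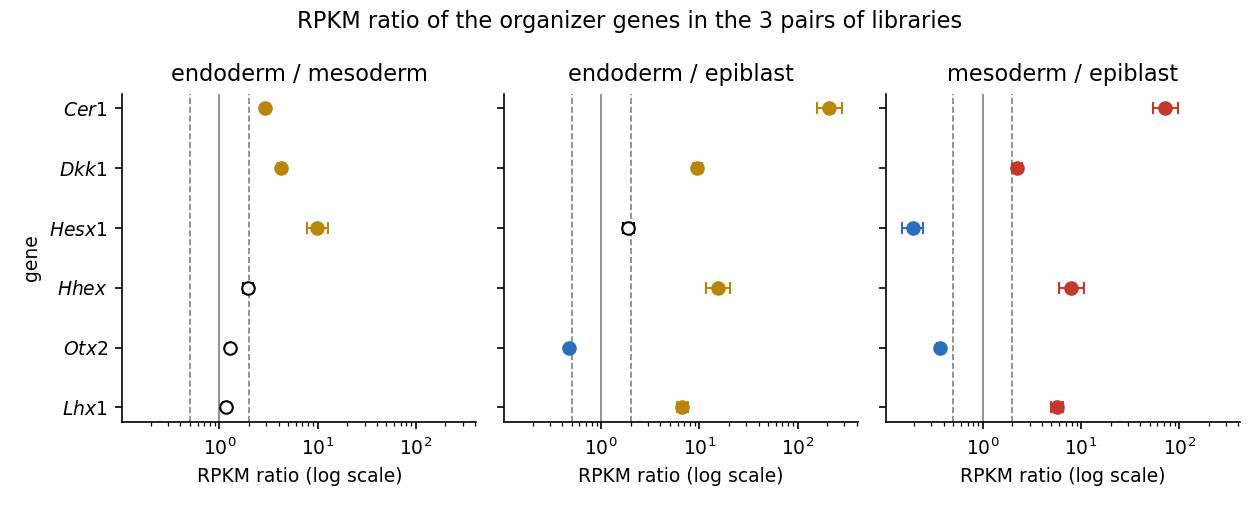
RPKM ratio of each member (log scale) for the 3 pairs of libraries, with 95% exact binomial intervals as bars, solid points where the criteria were met, in the colour of the higher library, and open points where they were not. Dashed lines mark 2-fold, and *Cer1* extends to 209-fold between endoderm and epiblast. Between endoderm and mesoderm the points of *Hhex*, *Otx2* and *Lhx1* stay inside 2-fold, and the bar of *Hhex* (1.73 to 2.20) crosses it.

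The mesoderm levels of the members were set beside those of endoderm markers in the same library. Relative to endoderm, the mesoderm level was 34.4% for *Cer1*, 85.0% for *Lhx1*, 51.3% for *Hhex* and 23.4% for *Dkk1*. It was 0.0532% for *Afp*, 0.0606% for *Ttr* and 0.0494% for *Apoa1*, which encode serum proteins made by the visceral endoderm, and 1.10% for *Rhox5*. The 6 definitive endoderm markers were uneven. *Trh* was at 1.71%, *Sox17* at 2.54% and *Foxa2* at 3.17%, whereas *Nepn*, with 107 reads in endoderm and 34 in mesoderm, was at 32.4%, close to the share of *Cer1*. *Cxcr4* was called 3.12-fold higher in mesoderm than in endoderm, and *Pyy* had 5 reads in mesoderm and 0 in endoderm. The part of endoderm cells in the mesoderm levels of the members was not tested. *Gata4*, which is expressed in endoderm and in cardiac mesoderm, was at 58.7%.

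*Hhex* is also known from blood and endothelial progenitors, and the markers of those cells differed in their layer. Of 8 such genes, 4 had RPKM>5 in mesoderm, and all 4 were called higher there than in endoderm and than in epiblast. *Kdr*, a VEGF receptor, had 62 reads in endoderm against 9100 in mesoderm and 180 in epiblast, *Tal1* had 18, 2259 and 38, *Etv2* had 20, 2026 and 97 and *Lmo2* had 87, 740 and 213. Their part in the mesoderm level of *Hhex* was not tested. The other 4 genes of the list stayed under RPKM 5 in all libraries. Of these, *Runx1* (1086, 156 and 35 reads) and *Gata1* (246, 184 and 51) had the layer order of *Hhex*, and *Fli1* and *Cdh5* were highest in mesoderm.

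*Hesx1* and *Otx2*, the members lowest in mesoderm, were compared with 14 genes of the anterior neural plate. *Six3*, a homeobox gene of the forebrain, had 589 reads in endoderm against 22 in mesoderm and 877 in epiblast, so that its endoderm level was 68.9% and its mesoderm level 2.62% of that in epiblast. *Rax*, another homeobox gene of the anterior neural plate, had 150, 2 and 40 reads, with an RPKM under 5 in every library. *Sox2*, a neural and pluripotency transcription factor gene, had 63, 133 and 4479 reads, and *Sox1* had 4, 8 and 442. Like *Hesx1*, *Six3* and *Rax* thus had many more reads in endoderm than in mesoderm, and *Sox2* and *Sox1* did not. *Six3* and *Rax* were not called in that pair, since both were under RPKM 5 in endoderm and in mesoderm. In the same pair, 0 genes of the list were called higher in endoderm. The 2 called were higher in mesoderm, *Gbx2* at 4.53-fold and *Irx3* at 2.89-fold. Of the 6 genes of this list with RPKM>5, 5 were called higher in epiblast than in endoderm and 5 higher than in mesoderm, to which upper-quartile scaling added *Irx3*.

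Genes of the node and axial mesendoderm were also high in the endoderm library. Of 8 listed genes, 7 had RPKM>5 in endoderm or mesoderm, and 6 of them (*Shh*, *Noto*, *Chrd*, *Nog*, *Foxj1* and *Foxa2*) were called higher in endoderm than in mesoderm and than in epiblast. *Shh*, which encodes a signal secreted by the node and notochord, had 888 reads in endoderm against 20 in mesoderm and 47 in epiblast, and *Noto*, a notochord homeobox gene, had 1058, 58 and 175. *Foxj1*, the regulator of motile cilia, had 4555, 239 and 1182. *T*, a gene of the primitive streak and notochord, had 7984, 6254 and 19966 and was called higher in epiblast than in either other layer. *Gsc*, a homeobox gene of the organizer, had only 11, 10 and 20 reads. The part of node tissue in the endoderm levels of the members was not tested.

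The antagonists related to *Cer1* and *Dkk1* by function did not follow them as a group. Of 19 listed genes, 8 had RPKM>5 in endoderm or mesoderm, of which 2 were called higher in endoderm (*Chrd* and *Nog*) and 3 higher in mesoderm (*Lefty2*, *Sfrp2* and *Fst*). Their median log2 ratio was -0.62. *Chrd*, a BMP antagonist of the node, had an RPKM of 13.4 in endoderm, 13.8-fold above mesoderm and 3.87-fold above epiblast, and *Nog*, another BMP antagonist, had 6.01, 2.37-fold and 4.11-fold above them. Against epiblast, again 2 were called higher in endoderm and 3 lower, with a median log2 ratio of -0.12.

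*Lefty2*, a Nodal antagonist, had 270 reads in endoderm against 4159 in mesoderm and 1659 in epiblast, and was thus highest where *Cer1*, which acts on the same ligand, was intermediate. *Lefty1*, whose expression marks the anterior visceral endoderm at earlier stages, had 2, 41 and 23 reads. *Fst*, an activin antagonist, had 229, 1388 and 5062 reads, and *Sfrp2*, a Wnt antagonist, had 230, 780 and 2316. *Sfrp1* was not called in any pair, with 4712, 8570 and 4650 reads. *Sfrp5*, a Wnt antagonist of the anterior endoderm, had 218, 361 and 33 reads and stayed under RPKM 5 in all 3 libraries. Between mesoderm and epiblast, 1 of 6 genes with RPKM>5 was called higher in mesoderm and 2 in epiblast.

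Among 21 listed ligands and receptors of the Nodal, BMP and Wnt pathways, 20 had reads. The list was not limited to direct binding partners of the *Cer1* and *Dkk1* proteins. *Nodal* had 413 reads in endoderm against 13 in mesoderm and 197 in epiblast, and with an RPKM of 4.73 in endoderm it did not reach the RPKM criterion. *Bmp2* had 2621, 1351 and 53 reads, an order like that of *Cer1*, and was 50.7-fold higher in endoderm and 26.6-fold higher in mesoderm than in epiblast. *Bmp4* was found mostly in mesoderm, with 92, 2735 and 229 reads, and *Wnt8a* mostly in epiblast, with 23, 153 and 1620.

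Of the co-receptors bound by DKK1, *Lrp5* had an RPKM of 52.7 in endoderm, 2.99-fold above mesoderm and 2.22-fold above epiblast, and both pairs were called. *Lrp6* was level between endoderm and mesoderm, at a ratio of 1.0, and was not called in any pair. The Wnt receptor genes *Fzd5* and *Fzd8* were called higher in endoderm than in both other layers, at 10.1-fold and 3.52-fold over mesoderm and 2.86-fold and 2.98-fold over epiblast. In all, 3 of 14 ligands and receptors with RPKM>5 were called higher in endoderm and 2 higher in mesoderm in that pair. Against epiblast 6 of 13 were called higher in endoderm and 2 in epiblast, and between mesoderm and epiblast 3 of 12 were called higher in mesoderm and 1 in epiblast. *Bmp2* was also called higher in endoderm than in mesoderm after TMM or median-of-ratios scaling, and *Acvr2b*, an activin receptor gene, was called lower in endoderm than in both other layers after upper-quartile scaling.

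**Figure D4:**
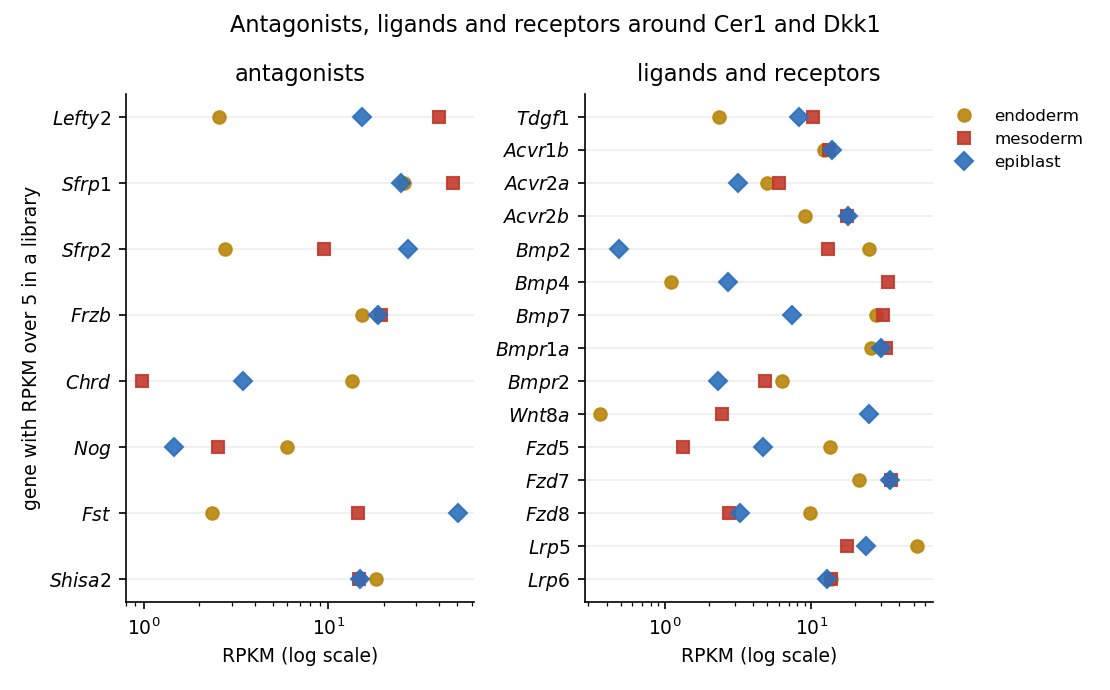
RPKM (log scale) in the 3 libraries of the listed antagonists (left) and of the ligands and receptors (right) that had RPKM>5 in a library, with 1 point per library. *Chrd* and *Nog* are highest in endoderm, *Lefty2* in mesoderm and *Fst* and *Sfrp2* in epiblast, and *Lrp5*, *Fzd5* and *Fzd8* are highest in endoderm.

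*Lhx1* and *Hesx1* proteins act with cofactors, LDB and SSBP proteins for the LIM domain and Groucho family corepressors for HESX1. The list of 15 genes held such cofactors together with *Lmo1*, *Lmo2*, *Lmo4* and *Rlim*, which belong to none of these families. Of the 15, 10 had RPKM>5 in endoderm or mesoderm, with a median log2 ratio of -0.45. Of these 10, 1 was called higher in endoderm and 4 in mesoderm, with *Lmo2* among the 4. *Ldb1*, the LIM domain binding cofactor, had 3625 reads in endoderm against 7714 in mesoderm and 7208 in epiblast, and was 2.17-fold higher in mesoderm than in endoderm. *Ssbp3*, whose protein stabilizes the LDB1 complex, was 2.18-fold higher there, and the Groucho gene *Tle3* 2.15-fold, a call that was lost with TMM or median-of-ratios scaling. *Aes*, a short Groucho family gene, had 3623, 473 and 3207 reads. It therefore shared the low mesoderm level of *Hesx1*, at 7.51-fold below endoderm and 6.49-fold below epiblast. Against epiblast 0 of 10 genes were called higher in endoderm by the exact test of Audic and Claverie and 2 higher in epiblast (*Ldb2* and *Tle4*), and *Tle4* lost this call with TMM or median-of-ratios scaling, while *Ldb1* gained one with upper-quartile scaling, at a log2 ratio of -1.09. Between mesoderm and epiblast 1 of 11 was called higher in mesoderm (*Lmo2*) and 2 in epiblast (*Ldb2* and *Aes*), to which upper-quartile scaling added *Tle4*, at a log2 ratio of -1.03.

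Of 14 transcription factors of endoderm and of the Nodal pathway, 13 had RPKM>5 in endoderm or mesoderm, of which 5 were called higher in endoderm and 4 in mesoderm. *Hnf4a*, a regulator of visceral endoderm metabolism, had 15342 reads in endoderm against 6 in mesoderm and 8 in epiblast, *Sox17* had 5147, 128 and 43 and *Foxa2* had 3895, 121 and 234. *Gata6* had 1997, 4067 and 105, and its higher level in mesoderm than in endoderm was not called with TMM or median-of-ratios scaling. *Eomes*, the T-box gene upstream of *Lhx1* and the anterior visceral endoderm, had 1478, 1069 and 2310 reads. *Foxh1*, a partner of SMAD2 in Nodal signalling, had 3633, 12481 and 6471. Against epiblast 7 of 13 were called higher in endoderm and 1 in epiblast, with a median log2 ratio of 4.09, and between mesoderm and epiblast 3 of 8 were called higher in mesoderm, of which *Foxh1* was not called with upper-quartile scaling, and 2 in epiblast.

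The homeobox relatives of the members were low. Of 15 listed genes 14 had reads, and only *Isl1* reached RPKM>5, with 453 reads in endoderm against 1095 in mesoderm and 218 in epiblast. *Otx1*, the paralog of *Otx2*, had 147, 283 and 220 reads. *Lhx5*, the closest paralog of *Lhx1*, had 10, 30 and 425 reads, and was thus highest in the layer in which *Lhx1* was lowest.

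The genes most like each member in distribution were found among the other 9134 genes with RPKM>5 in a library, by the summed absolute difference of the shares of RPKM over the 3 libraries. The nearest to *Cer1* were *Plac1* (4.19 percentage points), *Bmp6* (7.47) and *Zc3hav1* (8.38), and 5 genes lay within 10 points. *Plac1*, one of the trophoblast markers summed above, had an RPKM of 19.9 in endoderm against 6.25 in mesoderm and 0.569 in epiblast. The nearest to *Dkk1* were *Lpar1* (1.91), *Kitl* (1.95) and *Stat3* (2.41), among 57 genes within 10 points. *Cer1* therefore had few genes of like distribution, and *Dkk1* had more than any other member.

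The nearest to *Hesx1* were *Spint2* (3.64), *Mpzl2* (4.07) and *Cmtm8* (4.26), with 30 genes within 10 points. *Spint2*, which encodes a protease inhibitor of epithelia, had an RPKM of 114 in endoderm against 10.7 in mesoderm and 64.6 in epiblast. For *Hhex* they were *Emilin1* (2.36), *Tnnc1* (2.81) and *Rab3il1* (3.83), with 19 genes within 10 points. For *Otx2* they were *Dab1* (1.5), *Acrbp* (3.33) and *Ntn1* (3.56), with 25, and for *Lhx1* they were *Cdkn1c* (3.98), *Akap2* (4.71) and *Polg* (6.83), with 7. *Cdkn1c*, an imprinted cell cycle inhibitor, had an RPKM of 89.1 in endoderm against 76.7 in mesoderm and 9.60 in epiblast. Between members the smallest distances were 16.1 points for *Cer1* and *Dkk1* and 21.6 for *Cer1* and *Hhex*, and the largest was 108 for *Cer1* and *Otx2*. The likeness rests on 3 libraries and describes levels alone.

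The share of the gene length covered by reads, deposited beside the counts, was used to see whether the reads spread over each gene. In endoderm it was 99.66% for *Cer1*, 99.11% for *Dkk1*, 99.64% for *Lhx1*, 95.77% for *Hhex* and 95.45% for *Otx2*. *Hesx1* stood apart with 73.69% in endoderm, against 69.32% in mesoderm and 72.03% in epiblast. Among genes with similar numbers of reads (within 1.2-fold), 4.22% in endoderm and 5.35% in epiblast had a lower coverage than *Hesx1*, whereas in mesoderm, where it had 76 reads, 46.5% had. The covered length of *Hesx1* was 843, 793 and 824 of 1144 bases, nearly the same despite a 10-fold range of reads. The GENCODE M21 annotation has 2 *Hesx1* transcripts, which share 876 bases, or 76.6% of the deposited length. Which bases were covered was not analysed here.

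In epiblast *Cer1* had 84.85% of its length covered by 49 reads and *Hhex* 74.36% by 55, so that the few reads of these genes were spread along the transcript. The deposited length of *Otx2*, 1737 bases, equals that of 1 of its 11 annotated transcripts, so the gene level value does not separate its alternative starts. *Otx2* was also the only member that shares exonic bases with other annotated genes, 154 with the antisense lincRNA gene *Otx2os1* and 168 with *Gm49154*. Whether strand was used in counting is not given in the sources used here, so reads in these bases cannot be assigned with certainty. *Gm49154* lies on the same strand as *Otx2*, so strand would not separate their reads. *Otx2os1* was counted at 3 (endoderm), 0 (mesoderm) and 4 (epiblast), against 1506 or more for *Otx2*. *Gm49154* was unlisted and was set to 0 throughout, and whether the counting annotation held this gene is not known. The low counts of the 2 genes therefore do not show how many *Otx2* reads fell in the shared bases.

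**Figure D5:**
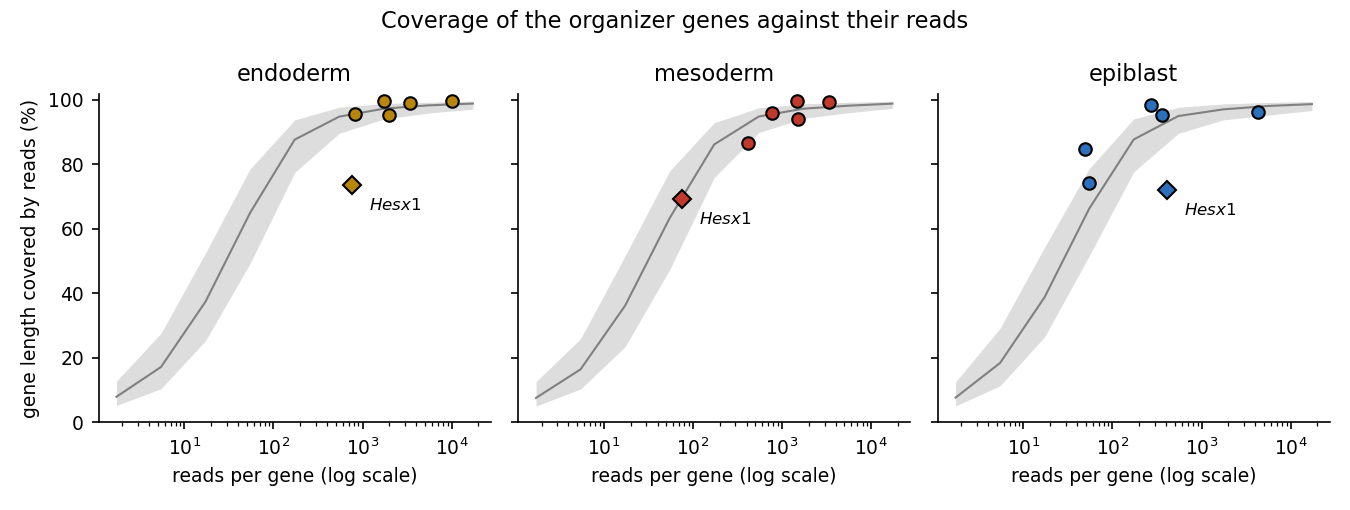
Percent of the gene length covered by reads against the reads per gene (log scale) in each library, with the members as points, the median of all genes in bins of reads as a line and their quartiles as a grey band. *Hesx1* (diamond) lies far below the band in endoderm (73.69%) and epiblast (72.03%), and inside it in mesoderm (69.32%).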

How the data were processed

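RNA-seq of the E7.5 endoderm, mesoderm and epiblast of ICR mice was analysed, with 1 library per layer. The authors made paired-end libraries, sequenced them on an Illumina HiSeq instrument and removed adapters and low-quality reads. For each gene with a read, the authors deposited the count of its uniquely mapped reads, not normalized, its length, its coverage as a percent of that length, and its RPKM. The deposited RPKM equals the count scaled by length and by all reads on genes (largest relative difference 2.03e-07). The submitters' processing notes name TopHat, mm10 and mm9. The counting program, its annotation and the use of strand are not given in the sources used here. Uniquely mapped reads leave out reads shared with near-identical copies.

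Groups were taken from the labels. An unlisted gene was given 0 reads, a count that allows up to 3. Calls used the criteria of the study, and the exact p-values of Audic and Claverie were adjusted by Benjamini-Hochberg over every gene read in the pair. The quasi-likelihood test of edgeR needs replicates and could not be fitted. Intervals are 95% exact Poisson for levels and Clopper-Pearson for folds. Alternatives were other thresholds, scalings, filters and adjustments, a pseudocount of 1 RPKM, and the exact test of edgeR with the biological coefficient of variation set by assumption to 0.2 or 0.4. The effect of scaling on the listed pathway genes was added after seeing the data. The named genes were the members, the 3 genes nearest to each in distribution, and genes of pathway and marker lists, of which every called gene and at most 4 others per list could be named. The members and lists were chosen with earlier results of these data known. Positions came from GENCODE M21 on GRCm38, and promoter windows from RefSeq on GRCm38.p6, where all 6 members were matched. Motifs were searched as exact letters. The calling steps were tested on simulated data. The software was R 4.3.3 with edgeR 4.0.16 and DESeq2 1.42.0 (size factors) and Python 3.11.15 with SciPy 1.17.1, numpy 2.4.6, matplotlib 3.10.9 and pandas 2.3.3. The microarray, qPCR and splicing data of the study were not analysed here.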

Additional observations from a re-analysis of the deposited data

How the results depend on the processing

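No direction of a member was reversed in any pair of libraries under the 11 alternatives run. Of 198 values (18 member ratios under 11 alternatives), 169 kept their side of the criteria, 25 lost a call and 4 gained it. Between endoderm and mesoderm the 3 calls fell to 0 when edgeR's exact test was given a biological coefficient of variation of 0.4 by assumption. Under the same setting the 5 calls between endoderm and epiblast fell to 2, and the 6 between mesoderm and epiblast to 1. With RPKM>10, the 6 calls between mesoderm and epiblast fell to 3. At a coefficient of 0.2 the calls in the 3 pairs were 2, 4 and 4, and with Fold Change>4 they were also 2, 4 and 4. Upper-quartile scaling, Benjamini-Yekutieli adjustment, the filter at 10 reads and RPKM>1 changed no call of a member. The number of members highest in endoderm was 5 under the 3 other scalings and with a pseudocount of 1 RPKM. That pseudocount lowered the ratios of *Cer1* and *Hhex* over epiblast, and their calls were kept. For endoderm over epiblast the log2 ratio fell from 7.71 to 6.39 for *Cer1* and from 3.94 to 2.82 for *Hhex*. For mesoderm over epiblast it fell from 6.17 to 4.87 for *Cer1* and from 2.98 to 1.96 for *Hhex*. No paired analysis was possible because there was 1 library per layer and the labels carry no replicate numbers. Calls near 2-fold, those of *Hhex*, *Hesx1*, *Otx2* and *Dkk1*, turn with the scaling or the pseudocount. Variation between embryos or dissections cannot be estimated from these data.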
